A study of Homo sapiens with 12 samples.

Results

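The miR-106b~25 cluster consists of 3 miRNA hairpins, miR-106b, miR-93 and miR-25, within the MCM7 gene, and each hairpin yields a strand from its 5′ arm and one from its 3′ arm. Its 6 mature strands, hsa-miR-106b-5p, hsa-miR-106b-3p, hsa-miR-93-5p, hsa-miR-93-3p, hsa-miR-25-3p and hsa-miR-25-5p, were selected by name from the 2652 mature miRNAs of the tables. The rule is a list of names and sets no threshold on a measured value. All 6 exceeded 100 CPM (reads relative to the library's miRNA total) in each of the 12 libraries and belonged to the 143 miRNAs that the study tested, called the Initial miRNA Dataset. SLAMseq, which was used here, labels newly made RNA with 4-thiouridine (4SU). Alkylated 4SU is read as C in place of T, so that the T>C conversion rate of a miRNA tracks the share of its molecules made during labelling.

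Huh7, a human hepatocellular carcinoma line grown in culture, was treated for 4 h in 4 independent experiments, each with 3 conditions. Control cells received DMSO and no 4SU. DMSO cells received DMSO together with 500 µM 4SU. PlaB cells received 500 µM 4SU and pladienolide B (PlaB), which blocks the splicing factor SF3B1. The labels give the PlaB dose as 500 µM and the study's methods as 1 µM. Each condition thus has 4 libraries, numbered by experiment, and all derive from a single cell line. The DMSO libraries of experiments 1 and 2 pool reads from several preparations of the same sample. Total reads on miRNAs were 1667668 to 2393680 in Control, 1968612 to 3880241 in DMSO and 1522210 to 1979696 in PlaB. The hepatocyte miRNAs miR-122-5p, miR-192-5p and miR-194-5p ranged from 14346 to 105331 CPM over all libraries, whereas the blood, muscle and neuronal miRNAs miR-142-3p, miR-223-3p, miR-133a-3p and miR-124-3p did not exceed 4.97 CPM in any.

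MCM7 encodes a subunit of the helicase that unwinds DNA at replication, and its intron serves as the source of the miRNA hairpins. In such intronic miRNAs the Microprocessor, formed by Drosha and DGCR8, cuts the hairpin out of the host transcript, Dicer removes the loop, and 1 of the strands is preferentially loaded into Argonaute as the guide, while the passenger strand is mostly degraded. The cluster is a paralogue of the miR-17~92a cluster, and its guide strands are known for repressing cell cycle inhibitors and pro-apoptotic factors. PlaB was used in the study to ask how a block of splicing affects the production of miRNAs.

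On GRCh38, MCM7 spans chr7:100092233-100101940 on the minus strand, and GENCODE version 44 places the 3 hairpins in intron 13 of its canonical transcript of 15 exons. That intron runs over chr7:100093402-100094172 and is 771 bases long. In the order of transcription, MIR106B (chr7:100093993-100094074) starts 98 bases into the intron, MIR93 (chr7:100093768-100093847) follows after 145 bases and MIR25 (chr7:100093560-100093643) after a further 124 bases, with 158 bases left to the next exon. No protein-coding MCM7 transcript has an exon over any of the hairpins, and 1 of the 13 annotated transcripts, annotated for nonsense-mediated decay, has an exon over MIR93. The mature sequences below, from RefSeq on GRCh38.p14, are shown because the seed (bases 2 to 8, in capitals) groups the strands and because only their U bases can carry a conversion.
hsa-miR-106b-5p: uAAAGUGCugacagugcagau
hsa-miR-106b-3p: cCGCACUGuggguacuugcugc
hsa-miR-93-5p: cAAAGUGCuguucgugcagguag
hsa-miR-93-3p: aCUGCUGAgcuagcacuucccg
hsa-miR-25-3p: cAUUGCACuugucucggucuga
hsa-miR-25-5p: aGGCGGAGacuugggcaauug

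The guide strands miR-106b-5p and miR-93-5p have the same seed, AAAGUGC, which 8 of 2370 RefSeq mature miRNAs carry. The miR-25-3p seed, AUUGCAC, is carried by 6. Each passenger seed occurs in 1 mature miRNA alone. miR-25-3p contains 8 U bases, miR-106b-3p and miR-93-5p contain 6, miR-106b-5p and miR-93-3p contain 5, and miR-25-5p contains 4. The reads covered nearly all of them, from 4.00 T positions per read for miR-25-5p to 8.00 for miR-25-3p, and 4.87 of the 5 for miR-106b-5p. Reads that map to several places made up at most 0.116% of the reads of any of the 6 strands. For orientation, the hairpins of miR-106b and miR-25 are printed with both mature strands in capitals, showing the guide on the 5′ arm of the first and on the 3′ arm of the second.
MIR106B: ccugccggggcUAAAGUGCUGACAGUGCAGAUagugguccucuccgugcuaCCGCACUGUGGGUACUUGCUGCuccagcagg
MIR25: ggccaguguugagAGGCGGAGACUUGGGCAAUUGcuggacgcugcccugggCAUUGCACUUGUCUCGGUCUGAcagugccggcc

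The steady-state level of the strands differed widely within the cluster, although the hairpins share an intron. miR-25-3p was the most abundant with 13731 ± 1689 CPM in DMSO (SD, n = 4) and ranked 15th of all mature miRNAs by its mean over the 12 libraries. miR-93-5p had 8770 ± 509 CPM and ranked 19th, and miR-106b-5p had 2743 ± 54.1 CPM and ranked 46th. Of the passenger strands, miR-106b-3p had 626 ± 80.7 CPM, miR-25-5p 292 ± 73.9 CPM and miR-93-3p 229 ± 35.1 CPM. The ranges of miR-25-5p and miR-93-3p in DMSO overlapped (228 to 389 against 184 to 264 CPM), whereas every other pair of neighbours in this order was separated. Since a read covers 1 whole strand, CPM needs no scaling by length, and the lengths differ only between 21 and 23 bases. Sequencing bias, which the study names as a challenge of miRNA sequencing, can still enter comparisons between strands.

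**Figure D1:**
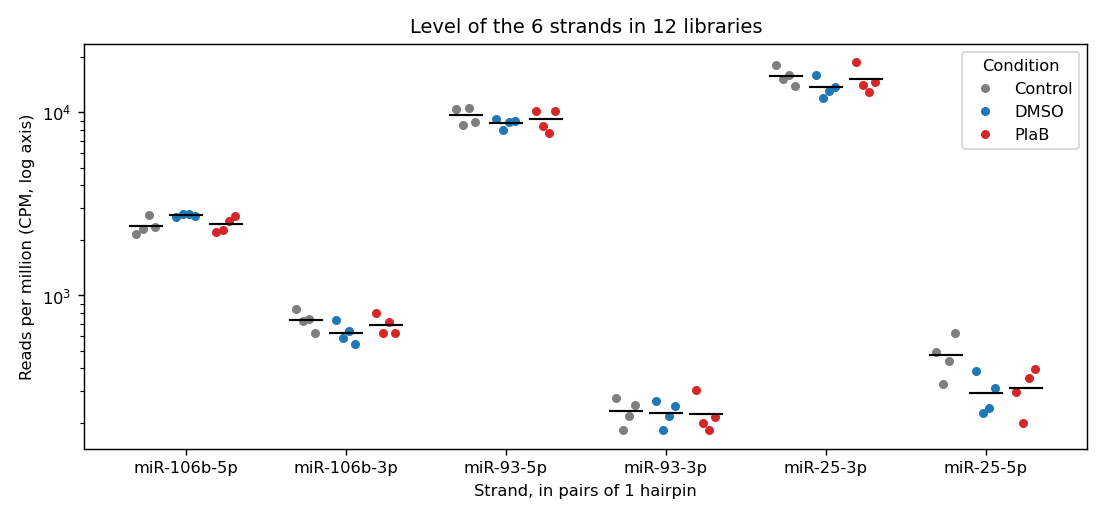
Level of each strand in CPM (log axis) in the 4 Control, 4 DMSO and 4 PlaB libraries, with points for libraries and black lines for means. The 3 conditions overlap for every strand, while the strands span from 183 CPM (miR-93-3p) to 18759 CPM (miR-25-3p).

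Fitted without the experiment as a block, neither 4SU nor PlaB moved the read counts of the strands past the threshold in edgeR's quasi-likelihood test. Its p-values are adjusted by Benjamini-Hochberg over the 143 miRNAs and called under 0.05. With the block, miR-25-5p and miR-106b-5p passed for DMSO against Control, as given below. The share of all miRNAs passing in that fit is not given, so whether these calls are unusual cannot be told. Without the block, 0 of the 6 passed for DMSO against Control, beside 4.2% of the 143 miRNAs, and 1 did at an unadjusted p under 0.05. That strand was miR-25-5p. Its CPM in experiments 1 to 4 was 494, 329, 440 and 624 in Control and 389, 228, 241 and 311 in DMSO. It was lower in DMSO in 4 of 4 experiments, while the ranges overlapped, with a log2 fold change of -0.68 (SE 0.226, edgeR adjusted p = 0.147). With the experiment as a replicate block the change was -0.66 and passed (edgeR adjusted p = 0.00312), as it did in DESeq2 (adjusted p = 0.0355).

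miR-106b-5p had 2171, 2300, 2747 and 2374 CPM in Control and 2676, 2789, 2784 and 2722 in DMSO, and was higher with 4SU in 4 of 4 experiments. Its log2 fold change was 0.21 (SE 0.104, edgeR adjusted p = 0.355), and the replicate block gave 0.22 with an adjusted p of 0.0469 in the same test. For the remaining 4 strands the log2 fold changes of DMSO against Control lay between -0.22 (miR-106b-3p) and -0.01 (miR-93-3p). PlaB against DMSO gave log2 fold changes in reads from -0.18 (miR-106b-5p) to 0.13 (miR-25-3p). CPM is a relative measure, so a change shared by all miRNAs, through fewer cells or less RNA per cell, would not show in it. None of the 6 passed in edgeR's test there, with 0 at an unadjusted p under 0.05 and 0 in DESeq2, beside 0.699% of the 143 miRNAs.

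All 6 strands took up label. In edgeR's test of conversions with covered T positions as offset, the T>C rate of each was higher in DMSO than in Control, beside 82.5% of the 143 miRNAs. The 4 DMSO libraries lay above the 4 Control libraries for every strand. The share of the 143 miRNAs separated in that way is not given, so the separation is not read as particular to the cluster. The median rate over the 143 miRNAs was 0.0178% of covered T positions in Control and 0.187% in DMSO.

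miR-25-5p, the passenger strand of miR-25, had the highest rate of the cluster and the 2nd highest of the 143 miRNAs. Its T>C rate in experiments 1 to 4 was 0, 0.0318, 0 and 0% in Control and 3.28, 3.35, 3.01 and 4.08% in DMSO. The Control value rests on 1 conversion in the 4 libraries together, and a count of 0 in the others allows rates of up to 0.0910, 0.0940 and 0.0503% in experiments 1, 3 and 4 (counting error only). The pooled DMSO rate was 531 times the pooled Control rate, with an exact 95% counting interval from 94.7 to 21001.

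miR-93-3p, the passenger strand of miR-93, ranked 4th. It had 0.0434, 0.0455, 0.100 and 0.0663% in Control and 2.42, 1.43, 1.17 and 1.43% in DMSO, with experiment 1 the highest. Its log2 fold change was 4.58 (SE 0.630, edgeR adjusted p = 7.80e-09).

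miR-106b-3p had 0, 0.0193, 0.0620 and 0.0786% in Control and 0.684, 0.358, 0.270 and 0.328% in DMSO. The 0 allows up to 0.0355%. Experiment 1 was again the highest of the DMSO libraries, with 116 conversions in 97 reads. This library pools several preparations, whose part in the high values of both passenger strands was not tested. The log2 fold change was 3.35 (SE 0.604, edgeR adjusted p = 2.89e-06).

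The guide strands were labelled less. miR-93-5p had 0.0248, 0.0414, 0.0347 and 0.0158% in Control and 0.176, 0.198, 0.219 and 0.189% in DMSO. Its log2 fold change of 2.74 (SE 0.277, edgeR adjusted p = 1.19e-12) rests on 1126 conversions in DMSO. miR-106b-5p had 0.00566, 0.00745, 0.00824 and 0.0217% in Control and 0.0890, 0.0921, 0.112 and 0.0575% in DMSO. It was the least labelled strand of the cluster, ranking 109th, with a log2 fold change of 2.92 (SE 0.649, edgeR adjusted p = 7.57e-05).

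miR-25-3p differed from the other strands in its Control cells. It had 0.190, 0.163, 0.209 and 0.163% there, the highest mean Control rate of the 143 miRNAs, and 0.348, 0.422, 0.439 and 0.298% in DMSO. The log2 fold change was the smallest of the 6 strands, at 1.06 (SE 0.167, edgeR adjusted p = 2.14e-07). After subtraction of the Control mean, its DMSO rate was 0.195%, close to the 0.166% of miR-93-5p. The paralogous miR-92a-3p, at 141676 CPM in DMSO, shares 18 of 22 bases with miR-25-3p and differs by C1U, U14C, U18C and A22U, with the miR-25-3p base first and positions counted from the 5′ end. A miR-92a-3p read therefore has C at a pair of positions where miR-25-3p has U. The Control conversions of miR-25-3p were almost all single, with 1858 conversions in 1857 reads. The study's mapping filters limited the mismatches allowed within a miRNA read, and their part in this count was not tested. What produced the Control conversions was not tested either.

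In DMSO the order of T>C rates was thus miR-25-5p, miR-93-3p, miR-106b-3p, miR-25-3p, miR-93-5p and miR-106b-5p. The 4 libraries of miR-106b-3p (0.270 to 0.684%) and miR-25-3p (0.298 to 0.439%) overlapped, and all other neighbours in the order were separated. The passenger strands, which were the less abundant, took the first 3 places.

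PlaB lowered the T>C rate of miR-93-5p and of no other strand past the threshold. That is 1 of 6, beside 48.3% of the 143 miRNAs that fell in edgeR's test. The median log2 fold change of the 6 strands was -0.57, and that of all 143 miRNAs was -1.23. By contrast, all 6 stayed above Control under PlaB in the same test, beside 53.8% of the 143 miRNAs.

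miR-93-5p had T>C rates of 0.0696, 0.117, 0.123 and 0.0895% in PlaB, below each of its DMSO libraries, which start at 0.176%. PlaB thus changed it by -0.97 on the log2 scale (SE 0.254, edgeR adjusted p = 0.00160). miR-93-3p, its passenger, had 1.03, 0.657, 1.03 and 0.631% in PlaB, also below all DMSO libraries. Its log2 fold change was of the same size, -0.96 (SE 0.472), but rests on 65 PlaB conversions and did not pass (edgeR adjusted p = 0.0904). DESeq2 gave an adjusted p of 0.0342. Without the DMSO library of experiment 1, the change of miR-93-3p was -0.68 (edgeR adjusted p = 0.312). Over the 143 miRNAs, the 4 PlaB rates lay below the 4 DMSO rates for 46.2%, and in the cluster for 2 of 6.

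miR-106b-5p had 0.0549, 0.0366, 0.111 and 0.0392% in PlaB, with experiment 3 far above the others and inside the DMSO range. It was lower than DMSO in 4 of 4 experiments. Its log2 fold change was -0.55 (SE 0.549, edgeR adjusted p = 0.425), on 49 PlaB conversions. miR-106b-3p had 0.123, 0.259, 0.323 and 0.394%. It was lower than DMSO in 2 of 4 experiments, and its log2 fold change was -0.60 (SE 0.502, edgeR adjusted p = 0.336). Without the DMSO library of experiment 1 it was -0.22. Neither strand of miR-106b thus changed by more than the spread between libraries.

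The miR-25 strands were nearest to their DMSO values. miR-25-3p had 0.305, 0.311, 0.370 and 0.335% in PlaB, all within the DMSO range. The log2 fold change was -0.19 (SE 0.165, edgeR adjusted p = 0.345), on 2758 PlaB conversions. miR-25-5p had 3.71, 4.25, 2.76 and 3.38% in PlaB, which was higher than DMSO in 2 of 4 experiments. Its log2 fold change was 0.04 (SE 0.293, edgeR adjusted p = 0.948), and its SE leaves an approximate 95% interval of the fold from 0.688 to 1.53.

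The strands were also tested relative to the typical miRNA, taken as the median log2 change of PlaB against DMSO, which was -1.31. In edgeR's fit with that shift as offset, the 2 strands of miR-25 kept more of their T>C rate than the typical miRNA, beside 7.69% of the 143. miR-25-3p stood 1.13 above it on the log2 scale (SE 0.168, edgeR adjusted p = 2.39e-09) and miR-25-5p 1.33 (SE 0.253, adjusted p = 4.73e-06). For miR-25-3p this fit includes its high Control rate, measured without 4SU, which damps the fold change of an unsubtracted rate. The Control rate of miR-25-5p is close to 0. The other 4 strands stood between 0.32 (miR-93-5p) and 0.77 (miR-106b-5p) above the typical miRNA and did not pass, and with the shift of the pooled rate (-0.82 on the log2 scale) the values of miR-93-5p and miR-93-3p turned to -0.16 and -0.17. Both calls for miR-25 held with that factor, at 0.64 for miR-25-3p and 0.84 for miR-25-5p.

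The PlaB/DMSO ratio, which is the mean PlaB rate less the mean Control rate divided by the same for DMSO, removes the Control rate. It was 1.03 for miR-25-5p, 0.760 for miR-25-3p, 0.645 for miR-106b-5p, 0.635 for miR-106b-3p, 0.50 for miR-93-3p and 0.424 for miR-93-5p. All 6 lay above the median of 0.318 over the 118 miRNAs whose rate rose with 4SU (interquartile range from 0.189 to 0.559), and 6 of those 118 had a higher ratio than miR-25-5p. Within single experiments the ratio of miR-25-5p was 1.13, 1.27, 0.916 and 0.830, and that of miR-93-5p was 0.297, 0.484, 0.477 and 0.426. Those of miR-106b-3p were scattered from 0.180 to 1.26. Without the DMSO library of experiment 1 the ratio of miR-106b-3p was 0.843, and without the PlaB library of experiment 3 that of miR-106b-5p was 0.426, level with miR-93-5p.

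The hairpins were compared with each other in 6 pairs, 3 of guide strands and 3 of passenger strands, by the log2 ratio of their T>C rates in each library. Exact two-sided permutation of 4 PlaB against 4 DMSO libraries can give no p below 0.0286. Only miR-93-5p against miR-25-3p reached it (raw p = 0.0286 in the exact test). The log2 ratio was -0.93 ± 0.190 with DMSO and -1.75 ± 0.321 with PlaB (SD, n = 4), without overlap, a difference of -0.82. With the mean Control rate subtracted it was -0.96, again with the smallest p. The p-values of the 6 pairs are unadjusted. Paired by experiment, sign flips of 4 differences cannot go below 0.125, which is the value they gave. Without the DMSO library of experiment 4 the difference was -0.73 (exact p = 0.0571).

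The passenger strands gave a difference of the same direction for the same hairpins. The log2 ratio of miR-93-3p to miR-25-5p went from -1.13 ± 0.475 in DMSO to -2.06 ± 0.564 in PlaB (SD, n = 4), a difference of -0.93 (exact p = 0.0571). The other 4 pairs, each of which includes a miR-106b strand, had differences from -0.62 to 0.39 and exact p-values of 0.286 to 0.571. Of these, miR-106b-5p against miR-25-3p reached -0.70 (exact p = 0.0286) without the PlaB library of experiment 3. The pair of miR-106b-3p and miR-93-3p, which differed by 0.32, reached 0.76 (exact p = 0.0286) without the PlaB library of experiment 1. The miR-93-3p and miR-25-5p pair reached -1.16 (exact p = 0.0286) without that of experiment 3.

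Strands of the same hairpin have a common precursor, so their rates can be set against each other within each library. In DMSO the passenger strand had the higher T>C rate in all 3 hairpins, beside 52.2% of the 23 hairpins with both strands in the dataset. The log2 ratio of passenger to guide rate was 3.20 (SE 0.298, adjusted p = 1.40e-20) for miR-25, 3.02 (SE 0.372, adjusted p = 2.70e-13) for miR-93 and 2.19 (SE 0.413, adjusted p = 7.48e-07) for miR-106b in edgeR's two-strand fit. For miR-25 this ratio contains the Control rate of the guide. Counted as the share of reads with a conversion, which grows with the number of T positions in a strand, the log2 ratios were 2.16 for miR-25, 2.52 for miR-93 and 2.41 for miR-106b, in another order. After subtraction of the Control means, the DMSO rates were 3.42% for miR-25-5p against 0.195% for miR-25-3p, 1.55% for miR-93-3p against 0.166% for miR-93-5p and 0.370% for miR-106b-3p against 0.0769% for miR-106b-5p.

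Conversions per converted read in DMSO were 1.23 for miR-93-3p against 1.02 for its guide, 1.11 for miR-106b-3p against 1.00, and 1.05 for miR-25-5p against 1.04. For miR-106b-3p the excess in DMSO lay in the library of experiment 1 alone, since the others had 41 conversions in 41 reads, 21 in 21 and 21 in 21. An excess was also present in PlaB, with 19 conversions in 12 reads in experiment 2 and 22 in 17 in experiment 3. The PlaB libraries of experiments 1 and 4 had 9 in 9 and 28 in 28.

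Guide and passenger did not differ detectably in how they changed with PlaB. The passenger-to-guide log2 ratio changed by 0.21 (SE 0.395, adjusted p = 0.733) for miR-25, by 0.07 (SE 0.515, adjusted p = 0.997) for miR-93 and by 0.04 (SE 0.542, adjusted p = 0.997) for miR-106b in edgeR's test. That is 0 of 3, with 0 at an unadjusted p under 0.05 and 0 by limma, beside 4.35% of the 23 hairpins. The approximate 95% intervals reach folds from 0.675 to 1.98 for miR-25, from 0.519 to 2.11 for miR-93 and from 0.491 to 2.14 for miR-106b, so a difference of about 2-fold between strands is not resolved.

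The share of the passenger strand in the reads of a hairpin was compared in the same way. For miR-106b it was 28.03, 23.9, 21.3 and 20.8% in Control, 21.5, 17.4, 18.7 and 16.6% in DMSO and 26.6, 21.4, 21.9 and 18.6% in PlaB. The share was lower in DMSO than in Control in 4 of 4 experiments, although the ranges overlapped. The passenger-to-guide log2 ratio of reads changed by -0.43 on the log2 scale (SE 0.163, edgeR adjusted p = 0.0436), which made miR-106b 1 of 3 hairpins called, close to the 34.8% of the 23 called in this direction. The call held with the experiment as a replicate block, at -0.43 (edgeR adjusted p = 0.00317). It was lost in limma (adjusted p = 0.0666) and with 1 of several libraries left out. The adjusted p in edgeR's test was 0.151 without Control 1, 0.0827 without Control 2, 0.119 without DMSO 2, 0.0723 without DMSO 3, 0.106 without DMSO 4 and 0.0509 without PlaB 2.

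For miR-25 the passenger held 2.66, 2.11, 2.67 and 4.26% of the reads in Control and 2.37, 1.86, 1.81 and 2.21% in DMSO. The log2 change was -0.48 (SE 0.224, edgeR adjusted p = 0.0993), -0.47 with the replicate block (adjusted p = 0.0249) and -0.62 without Control 2 (adjusted p = 0.0325). The miR-93 passenger held 2.04 to 2.77% in Control and 2.24 to 2.79% in DMSO. PlaB against DMSO called 0 of 3 hairpins, with 0 at an unadjusted p under 0.05 and 0 by limma, beside 0% of the 23, and the log2 changes ran from -0.09 (miR-93) to 0.31 (miR-106b).

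Level and T>C rate can be combined into a labelled level, here CPM multiplied by the Control-subtracted rate (as a fraction). It is a relative index of label and not a measured rate of synthesis. On this scale the strands of each hairpin were far more even than in the reads. In DMSO the guide-to-passenger ratio of miR-25 was 48.1 ± 6.34 in all reads (SD, n = 4) and 2.96 ± 1.55 in the labelled level. For miR-93 it was 38.7 ± 4.08 and 4.70 ± 2.04, and for miR-106b 4.44 ± 0.588 and 1.10 ± 0.630. The labelled ratio lay below the read ratio in 4 of 4 DMSO libraries of each hairpin. That direction follows by construction from the higher T>C rate of the passenger strands and is no separate result. The same held in PlaB, with labelled ratios of 2.11 ± 0.337, 4.20 ± 2.06 and 0.878 ± 0.567. For the miR-106b hairpin the labelled ratio scattered on both sides of 1, from 0.445 to 1.92 in DMSO.

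Both strands summed, the labelled level also ranks the hairpins, though not by their rate of synthesis. To compare synthesis between different miRNAs, the study holds that a time course would be needed. In DMSO miR-25 had 39.5, 36.6, 41.0 and 28.7, miR-93 had 19.7, 16.1, 19.4 and 17.7, and miR-106b had 6.80, 4.14, 4.30 and 2.84 in experiments 1 to 4. The order miR-25, miR-93, miR-106b held without overlap. In PlaB, miR-93 had 7.10, 8.59, 9.02 and 7.39, below all DMSO libraries and 0.441 of the DMSO mean (exact p = 0.0286, the smallest possible). miR-25 had 34.1, 26.9, 34.1 and 35.9 in PlaB, 0.900 of the DMSO mean (exact p = 0.343), and miR-106b had 1.64, 1.95, 4.58 and 2.97, 0.617 of it (exact p = 0.200). These 3 exact tests were not adjusted. The labelled level is built from the T>C rate, so the separation of miR-93 is no separate result from that of its rates.

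The paralogous miR-17~92a cluster, on chromosome 13, gives the guide strands closest in sequence to those of miR-106b~25. Its miR-17-5p and miR-20a-5p carry the seed of miR-106b-5p and miR-93-5p, and its miR-92a-3p carries that of miR-25-3p (RefSeq, GRCh38.p14, seed in capitals).
hsa-miR-17-5p: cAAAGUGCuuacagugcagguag
hsa-miR-20a-5p: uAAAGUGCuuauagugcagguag
hsa-miR-92a-3p: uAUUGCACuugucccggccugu

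Of the 12 mature strands of miR-17~92a, 7 were in the dataset, and 5 of these fell with PlaB in edgeR's test, beside 48.3% of the 143 miRNAs. Their median log2 change in T>C rate was -1.43, beside -1.23 for all. miR-17-5p had a T>C rate of 0.194 ± 0.0464% with DMSO against 0.0718 ± 0.0239% with PlaB (SD, n = 4), and miR-20a-5p from 0.266 ± 0.0448 to 0.0922 ± 0.0319%. miR-92a-3p went from 0.200 ± 0.0135 to 0.0715 ± 0.00448%, but 97.5% of its reads map to several places, because a further copy lies in the miR-106a cluster on chromosome X. Of that cluster 2 strands were in the dataset, miR-92a-3p and miR-19b-3p, which occur in both clusters, and both fell. Whether the clusters differ in their response was not tested.

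Grouped by seed, 3 of the 4 AAAGUGC miRNAs in the dataset fell with PlaB, namely miR-17-5p, miR-20a-5p and miR-93-5p. The remaining miR-106b-5p did not pass, at -0.55 (SE 0.549). Its log2 ratio to miR-93-5p changed by 0.39 (exact p = 0.343), so a different response is not shown. The median log2 change of the group was -1.20. For the AUUGCAC seed, 2 of 4 fell, about the 48.3% of all 143 miRNAs, namely miR-92a-3p and miR-92b-3p, while miR-25-3p and miR-32-5p did not pass, and the median was -0.84. miR-92b-3p, a guide from its own locus, had the highest DMSO rate of the group, 2.95 ± 0.259%, and fell to 1.05 ± 0.103% in PlaB (SD, n = 4).

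The miRNAs with the most similar T>C pattern were sought among 119 others with enough conversions, by the root mean square difference of log2 rates over the 12 libraries. For miR-93-5p the nearest was miR-92a-3p (0.415), followed by miR-148a-3p (0.511). For miR-106b-5p they were miR-23b-3p (0.591) and miR-24-3p (0.640), for miR-93-3p miR-30e-3p (0.756) and miR-30a-5p (0.849), and for miR-106b-3p miR-22-3p (0.871) and miR-181b-5p (1.02). The nearest to miR-25-5p was miR-181a-2-3p (0.769), with 3.78% in DMSO and 2.82% in PlaB, and then miR-92b-3p (1.17). miR-25-3p had no close neighbour, with 1.10 to miR-1269a and 1.15 to miR-26b-5p, the latter with a mean Control rate of 0.113%.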

How the data were processed

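The authors trimmed the reads with Trim Galore and counted them on GRCh38 miRBase coordinates with SLAM-DUNK, trimming 4 further bases from the 5′ end, without a mapping quality filter and with masking of SNPs. Their deposited tables give counts (reads, T>C conversions, covered T positions), CPM and the conversion rate as a fraction. Counts were tested with edgeR 4.0.16 in R 4.3.3 over 143 miRNAs, 12 libraries in 1 fit, TMM for reads and log covered T positions as offset for conversions. The SE is the log2 fold change over the square root of F. DESeq2 1.42.0 and limma 3.58.1 served as alternatives, and the tests were tried on simulated data. Exact tests, two-sided, and drawings used Python 3.11.15, numpy 2.4.6, pandas 2.3.3, scipy 1.17.1 and matplotlib 3.10.9. Log ratios add 0.5 to conversions.

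Libraries of 1 experiment deviated together in reads (lowest r 0.274 of log2 CPM), less so in rates (medians -0.0180 to 0.129), and the methods give 4 independent experiments. Named miRNAs are the 6 members, their paralogues and seed families, and for each member the 2 nearest patterns among miRNAs with at least 20 conversions. Members and lists were chosen with earlier results of these data known.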

Additional observations from a re-analysis of the deposited data

Results flagged for a closer look

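A Control library stood apart from the other 3 for 2 of the 36 sets of 4 libraries examined (CPM and T>C rate of 6 strands in 3 conditions), a number that chance can give since about 1 in 20 sets is marked. The T>C rate of miR-106b-5p was 0.0217% in the Control library of experiment 4, on 6 conversions, where the others ranged from 0.00566 to 0.00824%. That of miR-25-5p was 0.0318% in the Control library of experiment 2, on 1 conversion, where the others had 0.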

How the results depend on the processing

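Under each of the 19 alternative fits, the T>C rates of all 6 strands stayed above Control in DMSO and in PlaB, and that of miR-93-5p stayed lower in PlaB than in DMSO (log2 changes from -1.08 to -0.83). Both miR-25 strands stayed above the typical miRNA in 12 alternatives, and all 3 passenger strands above their guides in 17. Of the reads of DMSO against Control, 1 strand passed in DESeq2 and 2 with the replicate block. Of the T>C rates of PlaB against DMSO, 2 passed in DESeq2 and with only those 8 libraries, where the second was miR-93-3p. Of the strand ratios of reads, DMSO against Control, 0 of 3 passed with limma, 2 with the replicate block, 0 without DMSO 1 and 2 together and 0 to 1 with each library left out. The replicate block changed no other call of edgeR's tests. For these alternatives the shares over all miRNAs or hairpins are not given, so the calls cannot be set against them. The cause of the changed calls was not tested.

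Values that changed sign did not pass in either direction unless given with a p. For miR-93-3p in reads these were 0.0507 without DMSO 1 and 2 (-0.126 to 0.0653 with each library left out) for DMSO against Control, and 0.0118 with RLE factors, 0.0118 with DESeq2 and 0.0229 with only the libraries compared (-0.193 to 0.0765) for PlaB against DMSO. For miR-25-5p, PlaB against DMSO, reads ranged from -0.0169 to 0.284 with each library left out, and T>C rates from -0.0633 to 0.137, with -0.0144 without DMSO 1 and 2. Relative to the typical miRNA and with the pooled rate as factor, miR-93-5p was at -0.16 and miR-93-3p at -0.17. The strand difference in the change of T>C rate, counted on reads with a conversion, was -0.14 for miR-106b in edgeR's fit and -0.16 in the per-library ratio. With each library left out it ranged from -0.35 to 0.34 for miR-106b and from -0.23 to 0.35 for miR-93 in edgeR's fit, and from -0.34 to 0.37 and from -0.17 to 0.36 in the per-library ratio. The strand ratio of miR-25 reads, PlaB against DMSO, ranged from -0.20 to 0.11, and the pair of miR-106b-3p and miR-93-3p from -0.0113 to 0.758 (exact p = 0.0286 at the upper end). The per-library strand ratios and the subtraction of Control in the hairpin pairs were added after the data were seen.

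PlaB held 49 to 78 conversions for miR-106b-5p, miR-93-3p and miR-106b-3p. For miR-106b-3p the spread between libraries exceeded counting error, with Wilson 95% intervals from 0.0649 to 0.234% in PlaB 1 and from 0.272 to 0.568% in PlaB 4. Read numbers without molecular identifiers overstate independent molecules, so intervals cover counting error only. CPM is relative to all miRNAs of a library.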
